A study of Danio rerio with 16 samples.

Results

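The 10 genes of the blood vessel endothelium and of the endocardium, the inner lining of the heart, followed here by bulk RNA-seq in the zebrafish ventricle were *kdrl*, *cdh5*, *fli1a*, *tie1*, *tek*, *klf2a*, *klf2b*, *notch1b*, *dll4* and *vwf*. They were chosen by name as known genes of these cells, by no rule on their values, though earlier results of these data were known. All 10 were among the 31351 genes listed in the count table, and all 10 were among the 18949 genes that had at least 10 counts in at least 2 samples and were tested. The groups were *nr4a1* mutants and wild-type controls, each sampled uninjured (0 dpci, days post-cryoinjury) and at 2, 7 and 21 dpci. Every one of these 8 conditions had 2 samples, which makes 16. Mutants were adult fish (nr4a1-/-) whose *nr4a1* gene carries the *nc40* insertion in the second exon and hence a premature stop codon. The allele was present in every cell of the fish, and it was the only mutant allele sequenced. Cryoinjury froze part of the ventricle in both genotypes at every stage other than 0 dpci. The study speaks of biological replicates, but the sources used here give neither the number of fish in a sample nor whether ventricles were pooled, so p-values measure the spread between these samples. For each gene that spread is estimated over all 16 samples and drawn toward that of other genes, not from 2 samples alone.

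Endothelial cells line every vessel, and endocardial cells form the sheet that faces the blood inside the heart. Both types of cell carry the receptor tyrosine kinases through which VEGF and angiopoietins act, hold to each other through VE-cadherin, and read blood flow through the Klf2 transcription factors. Notch signalling between neighbouring cells, with Dll4 as a ligand, sets which cells sprout and which do not. In the injured zebrafish heart, vessels grow into the wound and the endocardium at the wound border responds to injury.

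Between 14333475 and 23618958 reads were counted on genes in the mutant samples and between 15765709 and 27668498 in the wild-type samples. The lowest count of any of the 10 genes in any sample was 560, for *klf2b*, and the highest was 12824, for *kdrl*, so none was near the limit of detection. Levels are given as CPM, read counts that edgeR scales to a common library size after TMM normalization, and the CPM of different genes are not compared because they are not divided by gene length. Samples of a condition differed by more than counting noise, with a chi-square per degree of freedom of 1.61 to 2.58. The mutated gene *nr4a1* was itself read in all mutant samples, and since such counts do not tell the alleles apart, they do not check the genotype. Of the cardiomyocyte markers, 8 of 10 were matched in the table and were summed to between 46943 and 95273 CPM in mutants and between 59449 and 110795 CPM in wild type. In bulk tissue a lower level can come from fewer cells of a type or from less RNA per cell, and these cannot be told apart here. In the RefSeq annotation of a later assembly, 9 of the 10 genes were matched, and overlaps of *fli1a*, which was not, are unknown. Of the matched genes 4 overlap another gene: *cdh5* a long non-coding RNA, *tie1* its antisense RNA, *notch1b* 2 non-coding RNAs and *fam163b*, and *vwf* a predicted coding gene. The strand setting of the counting is not given in the sources used here, so reads of such neighbours cannot be told apart.

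**Figure D1:**
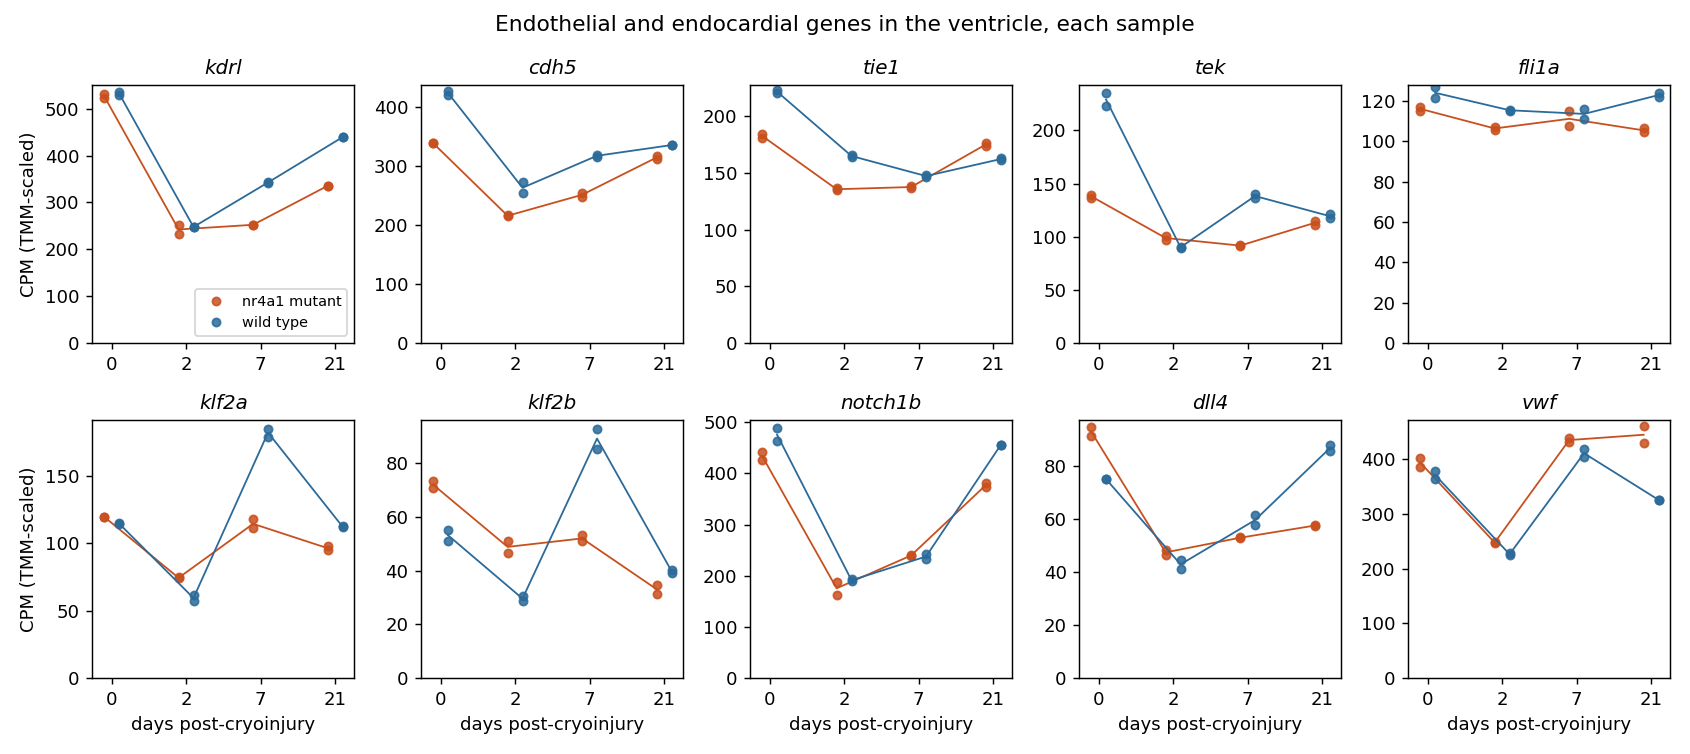
CPM (TMM-scaled, vertical axes from 0) of each of the 10 genes against days post-cryoinjury (stages evenly spaced), with 1 point per sample, mutants in orange to the left of wild type in blue, and lines through the means of the 2 samples. *klf2b* lay between 46.5 and 51.2 CPM in mutants at 2 dpci, above the wild-type 28.8 to 30.5 CPM, and between 50.9 and 53.1 CPM in mutants at 7 dpci, below the wild-type 85.5 to 92.9 CPM.

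Across the genotypes, the 10 genes did not move as a block. A gene is called here where the edgeR adjusted p (Benjamini-Hochberg over all tested genes) was under 0.05 and the log2 fold change (log2 FC) was over 0.5 in size. In mutants against wild type at 0 dpci, *tek* alone was called, and it was lower. At 2 dpci *klf2b* alone was called, and it was higher. At 7 dpci *tek*, *klf2a* and *klf2b* were called, all lower, and at 21 dpci *dll4* alone was called, also lower. Of all tested genes, 23.7% were called at 0 dpci, 16.8% at 2 dpci, 13% at 7 dpci and 16.3% at 21 dpci. The 1 of 10 called at 0, 2 and 21 dpci was below the background share, and the 3 of 10 at 7 dpci above it. A set of 10 genes is too small to read such gaps as a result, and they were not tested. The samples of the genotypes did not overlap for 9, 9, 8 and 10 of the 10 genes at the 4 stages, and over all tested genes for 69.8%, 65.3%, 59.2% and 65.3%, so samples that lie apart are common here. With no fold threshold, 7, 8, 6 and 9 of the 10 had an adjusted p under 0.05, as did 43.2%, 35.6%, 26.8% and 32.9% of all tested genes, most of the 10 with small differences. All tested genes include genes with far fewer reads, in which a small difference is harder to detect, so these sets are unlike. The same holds for the shares with no fold threshold given below. The median log2 fold change of the 10 genes was −0.056 at 0 dpci and 0.049 at 2 dpci, then −0.25 and −0.22 at the later stages, and that of all tested genes lay between 0.00027 and 0.021. At 7 dpci and again at 21 dpci, 8 of the 10 were below 0, although *cdh5* (0.072) and *tek* (0.087) were above 0 at 21 dpci when library totals took the place of TMM.

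**Figure D2:**
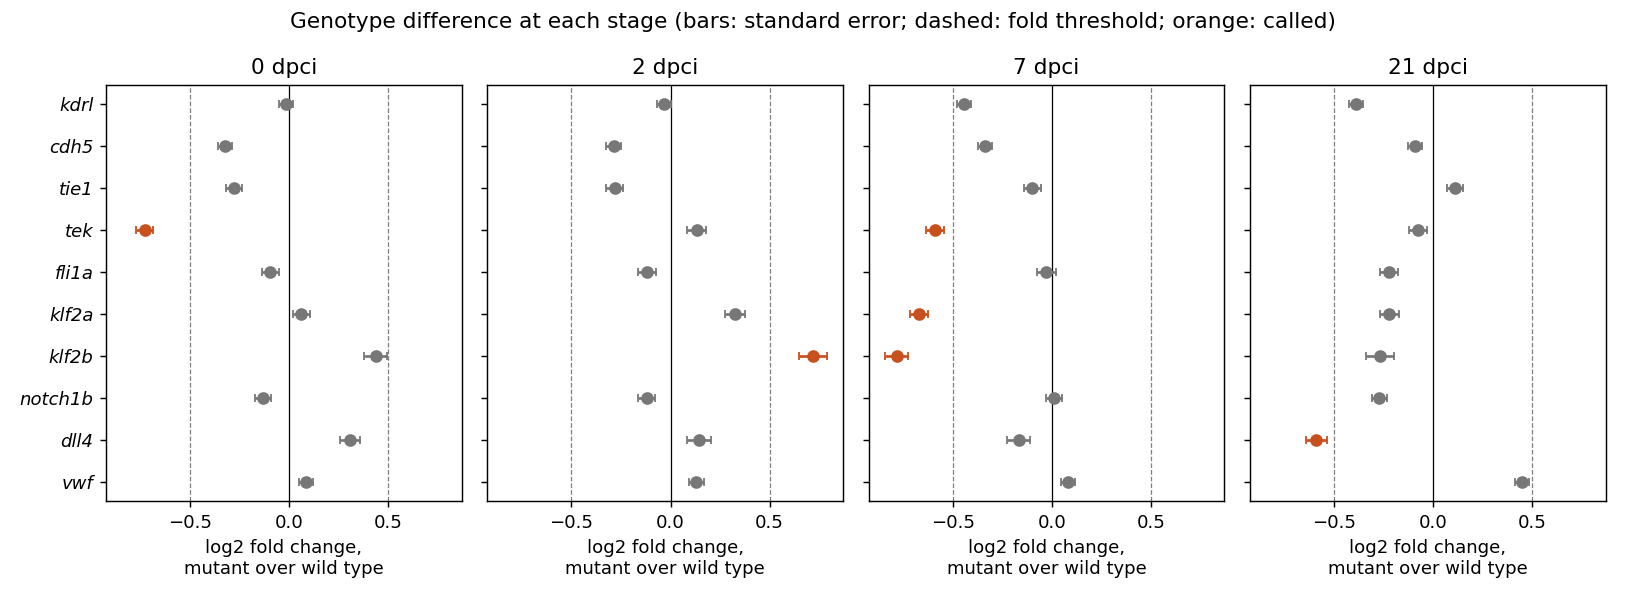
Log2 fold change of mutant over wild type (horizontal axes) for each of the 10 genes at each stage, as points with bars of 1 standard error (n = 2 samples per genotype and stage), dashed lines at the fold threshold of 0.5 and called genes in orange. The standard errors come from the edgeR fit to all 16 samples, not from the spread of those 2 samples alone. *tek* lies at −0.73 at 0 dpci and −0.59 at 7 dpci, *klf2b* at 0.72 at 2 dpci and −0.78 at 7 dpci, and *dll4* at −0.59 at 21 dpci.

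The receptor genes differed in which stage set the genotypes apart. *tek* encodes Tie2, the receptor of the angiopoietins. It had 137 and 139 CPM in uninjured mutants, against 235 and 222 CPM in uninjured wild type, 0.603 times the wild-type level. The log2 fold change was −0.73 (SE 0.0415, edgeR adjusted p = 1.57e-25). At 2 dpci *tek* had 101 and 97.0 CPM in mutants, against 90.4 and 89.9 CPM in wild type, so the order of the genotypes was the other way round. That difference was small (log2 FC 0.13, SE 0.0471, edgeR adjusted p = 0.0211) and was not called. At 7 dpci *tek* was called lower again, with 92.4 and 91.0 CPM in mutants against 139.9 and 137 CPM in wild type (log2 FC −0.59, SE 0.0457, edgeR adjusted p = 2.57e-18). At 21 dpci it had 111 and 115 CPM in mutants, against 118 and 121 CPM in wild type (log2 FC −0.079, edgeR adjusted p = 0.185). Wild type at 0 dpci thus stood above every other condition, and the highest condition mean of *tek* was 2.54 times the lowest.

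*tie1*, the other Tie receptor gene, whose product modulates Tie2, had a flatter profile. It had 184 and 181 CPM in mutants at 0 dpci, against 219.8 and 223 CPM in wild type, and 136 and 134 CPM in mutants at 2 dpci, against 166 and 163 CPM in wild type. The log2 fold change was −0.28 at both stages (edgeR adjusted p = 5.18e-09 and 3.2e-08), under the fold threshold. At 7 dpci it had 138 and 136 CPM in mutants, next to 146 and 148 CPM in wild type. At 21 dpci mutants were above wild type, with 176 and 173 CPM in mutants against a wild-type 163 and 161 CPM (log2 FC 0.11, edgeR adjusted p = 0.0281). The ratio of *tek* to *tie1* counts within a sample needs no scaling between samples, and it was 0.742 and 0.772 in uninjured mutants, against 1.07 and 0.999 in uninjured wild type. At 2 dpci it was 0.738 and 0.722 in mutants and 0.545 and 0.55 in wild type, and at 7 dpci 0.668 and 0.667 in mutants and 0.957 and 0.924 in wild type. The ratio therefore ranged from 0.63 to 0.772 over the 8 mutant samples and from 0.545 to 1.07 over the 8 wild-type samples.

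*kdrl* encodes a VEGF receptor of endothelial cells and is a marker widely used for them in zebrafish. The genotypes were nearly level at first, with 530.4 and 523 CPM in mutants against 530.0 and 535 CPM in wild type at 0 dpci, and 251 and 234 CPM in mutants against 249 and 247 CPM in wild type at 2 dpci (log2 FCs −0.016 and −0.032, edgeR adjusted p = 0.74 and 0.535). The 95% interval of the log2 fold change at 0 dpci ran from −0.083 to 0.051. At 7 dpci *kdrl* had 253 and 252 CPM in mutants, next to 340.5 and 345 CPM in wild type, and at 21 dpci 336 and 335 CPM in mutants, next to 439.8 and 438 CPM in wild type. These later differences came to log2 fold changes of −0.44 (SE 0.0357, edgeR adjusted p = 2.15e-17) and −0.39 (SE 0.0347, edgeR adjusted p = 1.24e-15). Both were under the fold threshold, with samples well apart. In mutants at 7 dpci *kdrl* was still at about its level at 2 dpci.

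*cdh5* encodes VE-cadherin, which joins endothelial cells to each other. It was lower in mutants at the first 3 stages by a similar amount, with 339.9 and 339 CPM in mutants against 421 and 427 CPM in wild type at 0 dpci, 216 and 217 CPM in mutants against 273 and 255 CPM in wild type at 2 dpci, and 255 and 248 CPM in mutants against 317 and 319 CPM in wild type at 7 dpci. This made log2 FC values of −0.32, −0.29 and −0.34 (edgeR adjusted p = 1.88e-12, 1.12e-09 and 3.95e-12), each under the fold threshold. At 21 dpci it had 318 and 312 CPM in mutants and 336 in both wild-type samples (−0.093 on the log2 scale, edgeR adjusted p = 0.0366). The *kdrl* to *cdh5* count ratio within a sample was 1.56 and 1.54 in uninjured mutants, against 1.26 and 1.25 in uninjured wild type, and at 21 dpci 1.05 and 1.07 in mutants, against a wild-type 1.31 and 1.3. The genotype with the higher ratio was thus not the same before injury and at 21 dpci.

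*fli1a*, an ETS family transcription factor gene of endothelial cells, varied least of the 10. Its condition means ran from 105 to 124 CPM, a range of 1.18-fold. It had 106 and 104 CPM in mutants at 21 dpci, against 122 and 124 CPM in wild type (log2 FC −0.22, SE 0.0459, edgeR adjusted p = 6.15e-05). Its log2 FC at 2 dpci was −0.12 (edgeR adjusted p = 0.0385), and at 0 and 7 dpci the adjusted p was 0.0734 and 0.726.

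*klf2a* and *klf2b* are the zebrafish counterparts of Klf2, a transcription factor that blood flow induces in endothelial and endocardial cells. Both were higher in mutants at 2 dpci and lower in mutants at 7 dpci. *klf2a* had 119.7 and 119.9 CPM in mutants against 114 and 115 CPM in wild type at 0 dpci, which did not pass the test (log2 FC 0.061, edgeR adjusted p = 0.273). At 2 dpci it had 74.2 and 74.8 CPM in mutants against 61.4 and 57.5 CPM in wild type (log2 FC 0.32, edgeR adjusted p = 3.12e-07, under the fold threshold). At 7 dpci the mutant samples had 111 and 118 CPM, and the wild-type samples had 185 and 179 CPM, the highest of all conditions. This difference was called, with a log2 fold change of −0.67 (SE 0.0445, edgeR adjusted p = 1.31e-21). At 21 dpci *klf2a* had 95 and 98.0 CPM in mutants, against 112 and 113 CPM in wild type (log2 FC −0.22, edgeR adjusted p = 8.41e-05).

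For *klf2b* the same order held with larger differences. It had 73.3 and 70.8 CPM in uninjured mutants, against 55.3 and 51.2 CPM in uninjured wild type (log2 FC 0.44, edgeR adjusted p = 1.71e-09, under the fold threshold). At 2 dpci it had 51.2 and 46.5 CPM in mutants against 30.5 and 28.8 CPM in wild type, a called difference (log2 FC 0.72, SE 0.069, edgeR adjusted p = 2.46e-14). The order of the genotypes was reversed at 7 dpci, with 50.9 and 53.1 CPM in mutants against 85.5 and 92.9 CPM in wild type (log2 FC −0.78, SE 0.0596, edgeR adjusted p = 1.15e-18). At 21 dpci both genotypes were low, with 34.8 and 31.4 CPM in mutants, next to 40.4 and 39.3 CPM in wild type (log2 FC −0.27, edgeR adjusted p = 0.00141). The *klf2b* to *klf2a* count ratio was 0.612 and 0.59 in mutants, against 0.484 and 0.443 for wild type at 0 dpci, and 0.69 and 0.622 in mutants, against 0.496 and 0.5 for wild type at 2 dpci. At 7 and 21 dpci the ratios of the genotypes were closer, from 0.32 to 0.458 in mutants and from 0.349 to 0.518 in wild type.

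Immediate early genes (13 such as those of the Fos and Egr families), which tissue handling and stress also induce, moved between the genotypes in the same order as *klf2b* at 0, 2 and 7 dpci. Their summed level was 767 to 771 CPM in mutants against 433 to 441 CPM in wild type at 0 dpci, 1435 to 1447 CPM in mutants against 1070.0 to 1074 CPM in wild type at 2 dpci, and 2468 to 2497 CPM in mutants against 2886 to 2893 CPM in wild type at 7 dpci. At 21 dpci the order differed from that of *klf2b*, with 2157 to 2184 CPM in mutants, next to 1568 to 1572 CPM in wild type. Of the 13 genes, 10 were called higher before injury and 6 at 2 dpci, 1 was called lower at 7 dpci, and at 21 dpci 7 were called higher with 1 lower, where the shares of all tested genes called in either direction were the 23.7%, 16.8%, 13% and 16.3% given above. Their median log2 fold changes were 0.88, 0.30, −0.25 and 0.56 at the 4 stages. The part of these genes in the *klf2a* and *klf2b* differences was not tested.

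The Notch pair went apart by stage. *dll4*, the gene of the Notch ligand Dll4, had 94.5 and 91.1 CPM in uninjured mutants, against 74.9 and 75.0 CPM in uninjured wild type (log2 FC 0.31, edgeR adjusted p = 3.82e-07, under the fold threshold). At 2 dpci it had 48.4 and 46.3 CPM in mutants, next to 44.5 and 41.2 CPM in wild type (edgeR adjusted p = 0.0573), and at 7 dpci 53.0 and 52.7 CPM in mutants, next to 61.3 and 57.8 CPM in wild type (log2 FC −0.17, edgeR adjusted p = 0.0225). At 21 dpci it had 57.7 and 57.2 CPM in mutants, against 85.4 and 87.6 CPM in wild type, 0.665 times the wild-type level. The log2 fold change was −0.59 (SE 0.0542, edgeR adjusted p = 4.26e-15) and was called. That call depended on the scaling and on how the fold threshold was set: with library totals in place of TMM the value was −0.42, and with the threshold inside the test no gene of the 10 was called at 21 dpci. *notch1b*, a Notch receptor gene expressed in zebrafish endocardium, differed less. It had 442 and 426 CPM in mutants, next to 488 and 463 CPM in wild type at 0 dpci (log2 FC −0.13, edgeR adjusted p = 0.00309). At 2 dpci it had 163 and 188 CPM in mutants, next to 193 and 189.6 CPM in wild type (log2 FC −0.12, edgeR adjusted p = 0.0189). At 7 dpci it had 239.5 and 240.0 CPM in mutants, next to 233 and 243 CPM in wild type (log2 FC 0.011, edgeR adjusted p = 0.881). At 21 dpci it had 373 and 381 CPM in mutants, against 454 and 455 CPM in wild type (log2 FC −0.27, SE 0.0387, edgeR adjusted p = 1.64e-08, under the fold threshold).

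*vwf*, the gene of von Willebrand factor, the adhesive protein that endothelial cells and thrombocytes store for clotting, had the largest positive genotype difference of the 10 genes at 21 dpci. It had 429 and 459 CPM in mutants at 21 dpci, against 325 and 326 CPM in wild type (log2 FC 0.45, SE 0.0359, edgeR adjusted p = 8.46e-18, under the fold threshold). With library totals in place of TMM, the log2 fold change was 0.61 and the gene was called. At 0, 2 and 7 dpci the differences were small, with log2 fold changes of 0.085, 0.13 and 0.082 (edgeR adjusted p = 0.0438, 0.00418 and 0.0803). The *vwf* to *cdh5* count ratio was 1.35 and 1.47 in mutants at 21 dpci, against 0.967 and 0.969 in wild type. It was also higher in mutants at the other stages, from 1.14 to 1.74 over those 6 mutant samples, against 0.822 to 1.31 over the 6 wild-type samples. The 7 matched thrombocyte markers, which include *itga2b* and *mpl*, summed to 133 to 138 CPM in mutants, next to 122 to 126 CPM in wild type at 21 dpci. At 2 dpci they summed to 290.0 to 302 CPM in mutants, next to 442 to 454 CPM in wild type. The sums weigh these markers unequally, since counts over all samples were 757 to 3650 for *thbs1b* and 319 to 2400 for *f13a1b*. For *mpl* they were only 31 to 130. In bulk tissue it is not known which cells the reads of these markers came from, so the sums do not measure thrombocyte content. The part of thrombocytes in the *vwf* values was not tested.

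After cryoinjury most of the 10 genes fell first, and how far they came back differed by gene and genotype. In mutants, 7 of 10 were called lower at 2 dpci than at 0 dpci, and in wild type 8 of 10, with none called higher. All 10 were below 0 in both genotypes. The medians were −0.66 in mutants and −0.83 in wild type, and over all tested genes 0.00039 in mutants and 0.021 in wild type. Of all tested genes 45.2% were called in mutants and 41.9% in wild type in either direction, and 20.8% were called lower in mutants and 19.0% in wild type. *notch1b* fell most in mutants, with a log2 fold change of −1.30 (SE 0.0407, edgeR adjusted p = 8.68e-42), followed by *kdrl* at −1.12 (SE 0.0353, edgeR adjusted p = 1.37e-41) and *dll4* at −0.97, which fell by 0.81 in wild type. In wild type *tek* fell most, with a log2 fold change of −1.35 (SE 0.0436, edgeR adjusted p = 1.1e-40), then *notch1b* at −1.31 and *kdrl* at −1.10. *klf2a* fell by 0.69 in mutants and by 0.95 in wild type, *klf2b* by 0.56 in mutants and 0.85 in wild type, *cdh5* by 0.65 in mutants and 0.69 in wild type, and *vwf* by 0.67 in mutants and 0.71 in wild type, on the log2 scale. In mutants *tek* was lower by a log2 fold change of −0.48, under the fold threshold, as was *tie1* in mutants and wild type (−0.43 in each). Related lists did not all follow. Of 24 tested other endothelial genes, 6 were called higher and 8 lower in mutants, and 6 higher and 7 lower in wild type. Their medians were −0.057 in mutants and −0.21 in wild type, with lower summed levels in both. The other endocardial genes, which include *fn1a*, summed to 2539 to 2602 CPM in mutants at 2 dpci and 1045 to 1071 CPM at 0 dpci. In wild type they summed to 2156 to 2168 CPM at 2 dpci and 1066 to 1089 CPM at 0 dpci.

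The size of this early fall depended on the scaling. With library totals in place of TMM, the median of all genes moved to 0.39 in mutants and 0.40 in wild type, and the count of genes called lower became 3 in mutants and 4 in wild type. *fli1a*, at −0.13 in mutants and −0.10 in wild type with TMM, was then at 0.26 in mutants and 0.28 in wild type. The fall of *klf2b* in mutants was not called without sample 2 of the mutants at 2 dpci (log2 FC −0.45). Markers of other cells moved over the same interval. Cardiomyocyte markers summed to 46943 to 48274 CPM in mutants at 2 dpci and 92108 to 95273 CPM at 0 dpci, and in wild type to 59449 to 60211 CPM at 2 dpci and 100783 to 102996 CPM at 0 dpci. The 9 matched macrophage markers summed to 1584 CPM in both mutant samples at 2 dpci and 514 to 526 CPM at 0 dpci, and in wild type to 1380 to 1387 CPM at 2 dpci and 439 to 443 CPM at 0 dpci. The part of these other cells in the fall was not tested.

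**Figure D3:**
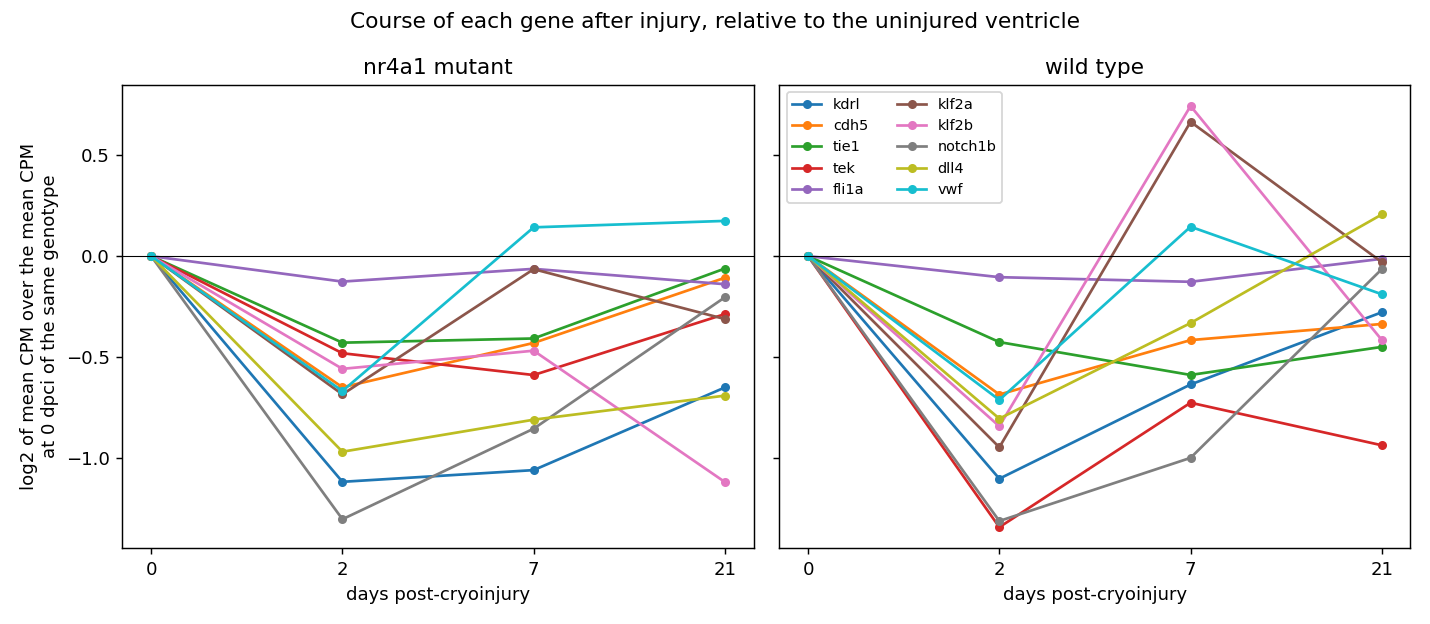
Log2 of the mean CPM at each stage over the mean CPM at 0 dpci of the same genotype (vertical axis) against days post-cryoinjury (stages evenly spaced), with 1 line per gene, mutants in the left panel and wild type in the right panel, without error bars (n = 2 samples per point). All 10 lines are below 0 at 2 dpci in both panels, and at 7 dpci *klf2a* and *klf2b* are above 0 in wild type and below 0 in mutants. The change from 0 to 7 dpci was not tested. In mutants *klf2a* was near its uninjured level, with 111 to 118 CPM at 7 dpci and 119.7 to 119.9 CPM at 0 dpci.

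From 2 to 7 dpci *klf2a* and *vwf* rose in both genotypes, and *klf2b* and *tek* were called in wild type alone. The difference between genotypes over this interval was not tested. In mutants 2 of 10 genes were called higher, *klf2a* with a log2 fold change of 0.62 (SE 0.0486, edgeR adjusted p = 2.33e-18) and *vwf* with 0.81 (SE 0.0366, edgeR adjusted p = 4.24e-31), where 21.8% of all tested genes were called. In wild type 4 of 10 were called higher, *klf2a* with 1.61 (SE 0.0475, edgeR adjusted p = 1.3e-42), *klf2b* with 1.59 (SE 0.0638, edgeR adjusted p = 2.55e-34), *vwf* with 0.86 and *tek* with 0.62, where 23.4% were called. None of the 10 was called lower in either genotype. Of all tested genes, 11.4% in mutants and 12.4% in wild type were called higher. *klf2b* had 50.9 and 53.1 CPM in mutants at 7 dpci and 51.2 and 46.5 CPM at 2 dpci, so these samples overlapped, whereas in wild type it had 85.5 and 92.9 CPM at 7 dpci and 30.5 and 28.8 CPM at 2 dpci. *kdrl* was higher in wild type by 0.47, under the fold threshold, and *notch1b* was higher in both genotypes by 0.45 in mutants and 0.31 in wild type, also under it. With no fold threshold, 5 of 10 in mutants and 9 of 10 in wild type had an adjusted p under 0.05, as did 41.5% of all tested genes in mutants and 43.7% in wild type. Of the 9 in wild type, *tie1* was lower at 7 dpci than at 2 dpci (log2 FC −0.16, edgeR adjusted p = 0.000627). Without sample 2 of the mutants at 2 dpci, *notch1b* was called in mutants (0.53).

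From 7 to 21 dpci *klf2b* fell and *notch1b* rose in both genotypes. In mutants *klf2b* fell (log2 FC −0.65, SE 0.0673, edgeR adjusted p = 1.85e-13) and *notch1b* rose (0.65, SE 0.0401, edgeR adjusted p = 5.76e-24), 2 of 10 where 29.8% of all genes were called. In wild type 4 of 10 were called where 37% of all genes were: *klf2a* fell (−0.70, SE 0.0445, edgeR adjusted p = 3.02e-23), *klf2b* fell (−1.16, SE 0.0617, edgeR adjusted p = 1e-27), *notch1b* rose (0.94, SE 0.0398, edgeR adjusted p = 2.77e-33) and *dll4* rose (0.54, SE 0.054, edgeR adjusted p = 3e-14). The rise of *dll4* in wild type sat at the fold threshold and was at 0.50, not called, without sample 2 of wild type at 7 dpci. With library totals in place of TMM it was 0.20, and the rise of *notch1b* in mutants was 0.45, also not called, while *tek* (−0.55) and *vwf* (−0.68) were then called lower in wild type. With no fold threshold, 7 of 10 in mutants and 9 of 10 in wild type had an adjusted p under 0.05, as did 48.9% of all tested genes in mutants and 55.1% in wild type.

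At 21 dpci some of the genes were still below the uninjured level. In mutants 3 of 10 were called lower than at 0 dpci, where 20% of all genes were called in either direction and 6.9% lower. They were *klf2b* (log2 FC −1.12, SE 0.0634, edgeR adjusted p = 1.37e-25), *dll4* (−0.69, SE 0.053, edgeR adjusted p = 7.94e-19) and *kdrl* (−0.65, SE 0.0344, edgeR adjusted p = 2.88e-27). In wild type *tek* alone was called lower (−0.94, SE 0.0426, edgeR adjusted p = 3.24e-31), where 23.4% of all genes were called. *vwf* in mutants was higher than at 0 dpci by 0.17 and lower in wild type by a log2 fold change of −0.19, both under the fold threshold. *dll4* in wild type was higher than at 0 dpci by 0.21 (edgeR adjusted p = 0.000655), also under it. In wild type *klf2a* (−0.030, edgeR adjusted p = 0.635) and *notch1b* (−0.065, edgeR adjusted p = 0.173) were near the uninjured level. *tie1* had 176 and 173 CPM in mutants at 21 dpci and 184 and 181 CPM at 0 dpci, while in wild type it was lower at 21 dpci by a log2 fold change of −0.45, under the fold threshold. With no fold threshold, 9 of 10 in mutants and 7 of 10 in wild type had an adjusted p under 0.05, as did 39.4% of all tested genes in mutants and 42.8% in wild type.

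Whether the genotype difference itself changed after injury was tested as the log2 FC of mutants over wild type at a later stage minus that at 0 dpci, called where the edgeR adjusted p was under 0.05. These 3 tests share the 0 dpci samples of both genotypes. At 2 dpci 3 of 10 genes were called, where 34% of all tested genes were: *tek* (0.86, SE 0.0627, edgeR adjusted p = 1.24e-19), *klf2a* (0.26, edgeR adjusted p = 0.00139) and *klf2b* (0.28, edgeR adjusted p = 0.0103). The call of *klf2b* was lost without sample 1 of the mutants at 2 dpci or of wild type at 0 dpci (edgeR adjusted p = 0.0565 and 0.0747). At 7 dpci 5 of 10 were called, where 23.6% of all genes were, and the largest were *klf2b* (−1.22, SE 0.0833, edgeR adjusted p = 9.67e-21) and *klf2a* (−0.73, SE 0.0629, edgeR adjusted p = 5.08e-16). *dll4* (−0.48) and *kdrl* (−0.43) were also lower, and *tie1* (0.18, edgeR adjusted p = 0.0126) was higher, a call lost without sample 2 of the mutants at 0 dpci (edgeR adjusted p = 0.0523). At 21 dpci 9 of 10 were called, all but *fli1a*, where 35.7% of all genes were. This call has no fold threshold, and that background takes in genes with far fewer reads than the 10, so the sets are unlike. Of 14780 genes with at least 50 counts in 2 samples, 6507 were called at 21 dpci. *dll4* (−0.90, SE 0.0741, edgeR adjusted p = 3.05e-17), *klf2b* (−0.70), *kdrl* (−0.37), *klf2a* (−0.28) and *notch1b* (−0.14) moved down relative to wild type, and *tek* (0.65, SE 0.0613, edgeR adjusted p = 9.35e-15), *tie1* (0.39), *vwf* (0.36) and *cdh5* (0.23) moved up. The genotypes were close in *tek* at 21 dpci and apart at 0 dpci. The call of *notch1b* held in 2 of the 8 fits that left out 1 sample of the conditions compared, and it was lost in the DESeq2 Wald test (adjusted p = 0.108) and without the filter on low counts, and its sign turned with library totals (0.0048), where the call of *klf2a* at 21 dpci was also lost (−0.14).

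Other genes of the same pathways, taken from lists of known members, were counted in the same fits. Of 24 tested other endothelial genes, the mutants had 1 called higher and 5 lower before injury, 2 higher and 3 lower at 2 dpci, 5 lower at 7 dpci and 3 lower at 21 dpci. For this list and those that follow, the background is again 23.7%, 16.8%, 13% and 16.3% of all tested genes called at 0, 2, 7 and 21 dpci, so 6 of 24 at 0 dpci and 3 of 24 at 21 dpci are near it. The median log2 fold change of the list was −0.045, 0.0062, −0.19 and −0.33 at the 4 stages, against 0.00027 to 0.021 over all tested genes. The summed level of the list was 1358 to 1368 CPM in mutants against 1489 to 1507 CPM in wild type at 0 dpci, 1011 to 1014 CPM in mutants against 1033 to 1060 CPM in wild type at 2 dpci, 1070.0 to 1072 CPM in mutants against 1288 to 1302 CPM in wild type at 7 dpci, and 1165 to 1174 CPM in mutants against 1423 to 1429 CPM in wild type at 21 dpci. *cldn5b*, a claudin gene of tight junctions, averaged 4.64 CPM in uninjured mutants and 18.5 CPM in uninjured wild type (log2 FC −1.99, SE 0.118, edgeR adjusted p = 1.65e-24). *plvapb*, the gene of a protein of vessel fenestrae, was lower in mutants at 0, 2 and 7 dpci (log2 FC −1.36, −0.81 and −0.70). *ramp2*, which encodes a partner of the adrenomedullin receptor, averaged 99.2 CPM in mutants, next to 186 CPM in wild type at 0 dpci (−0.91, SE 0.0466, edgeR adjusted p = 5.74e-28) and 79.0 CPM in mutants, next to 134 CPM in wild type at 7 dpci (−0.76). *etv2*, an ETS factor gene of early endothelium, was lower at 7 dpci (−0.60), and *sox7*, another endothelial transcription factor gene, was lower at 21 dpci (−0.56).

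Of the 15 tested VEGF ligands and receptors beside *kdrl*, 3 were called higher and 1 lower in mutants at 0 dpci. At 2 dpci 2 were called higher and 2 lower, and at 7 dpci 2 lower and none higher. At 21 dpci 7 were called lower and none higher. These counts were made with TMM only, and library totals moved the median of all tested genes at 21 dpci to 0.18. The median of these 15 genes was −0.46 at 21 dpci and 0.0018 at 0 dpci, and that of all tested genes was 0.018 at 21 dpci and 0.015 at 0 dpci. *flt1*, the gene of a VEGF receptor that holds back VEGF signalling, averaged 167 CPM in mutants, next to 108 CPM in wild type at 0 dpci (log2 FC 0.63, SE 0.0458, edgeR adjusted p = 4.53e-20), 67.1 CPM in mutants, next to 40.7 CPM in wild type at 2 dpci (0.72), and 57.7 CPM in mutants, next to 108 CPM in wild type at 21 dpci (−0.90, SE 0.0523, edgeR adjusted p = 9.17e-25). *flt1* was thus higher in mutants at the first 2 stages and lower at 21 dpci, as *dll4* was at 0 and at 21 dpci. *vegfab*, one of the VEGF-A genes, averaged 164 CPM in mutants, next to 255 CPM in wild type at 21 dpci (−0.63, SE 0.0413, edgeR adjusted p = 4.27e-22). Of the 4 tested genes of the angiopoietin list, 1 was called higher and 2 lower in mutants at 0 dpci, with a median of −0.54. The 2 lower include *angptl4*, which is angiopoietin-like and not an angiopoietin gene. *angpt2a* and *angpt2b* had few reads, with 14 to 86 and 13 to 88 counts over all samples. The higher gene, *angpt1*, which encodes the ligand that activates Tie2, averaged 122 CPM in uninjured mutants and 55.4 CPM in uninjured wild type (1.14, SE 0.0504, edgeR adjusted p = 1.1e-31). At 0 dpci this ligand gene was thus higher in mutants and *tek* lower. *angptl4*, an angiopoietin-like gene, was lower in mutants at 0 dpci (−1.01) and higher at 21 dpci (0.78).

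Of 23 tested other Notch pathway genes, 5 were called lower and 2 higher in mutants at 21 dpci, and at 7 dpci 1 was called lower and none higher. Their median was −0.13 at 21 dpci and −0.25 at 7 dpci. The Notch target gene *her6* averaged 48.2 CPM in mutants, next to 103 CPM in wild type at 21 dpci (log2 FC −1.09, SE 0.0582, edgeR adjusted p = 7.71e-27), and *nrarpa*, a feedback regulator of Notch, averaged 55.9 CPM in mutants, next to 104 CPM in wild type (−0.89, SE 0.0525, edgeR adjusted p = 2.19e-24). *notch3*, a receptor gene of mural cells, was lower too (−0.72). Of 9 tested mural cell markers, 2 were called lower and none higher at 21 dpci, with a median of −0.23, and their part in the *notch3* value was not tested. After injury in mutants, 11 of the 23 were called lower and 2 higher at 2 against 0 dpci, and 4 higher and none lower at 7 against 2 dpci. In wild type 14 were called lower and 1 higher, and then 11 higher and none lower. Over all tested genes 45.2% in mutants and 41.9% in wild type were called at 2 against 0 dpci, and 21.8% in mutants and 23.4% in wild type at 7 against 2 dpci. The mutant and wild-type counts were not tested against each other.

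Of 25 tested genes of the flow response and Klf relatives, the mutants had 3 called higher and 3 lower before injury, 4 against 2 at 2 dpci, 3 against 1 at 7 dpci, and 3 against 4 at 21 dpci, with medians of 0.095, 0.13, 0.018 and −0.14. *klf6a*, a Klf family gene, was higher in mutants at 2 dpci (log2 FC 0.53) and lower at 21 dpci (−0.67). *edn1*, an endothelin gene, averaged 15.0 CPM in mutants, next to 5.05 CPM in wild type at 21 dpci (1.56, SE 0.154, edgeR adjusted p = 7.61e-14). Of 16 other endocardial genes, 2 were called higher and 1 lower before injury, 2 higher at 2 dpci, 1 lower at 7 dpci, and at 21 dpci 1 higher and 2 lower, with medians of −0.022, −0.15, −0.085 and −0.25 at the 4 stages. *nfatc1*, a transcription factor gene of endocardium and valves, averaged 119.9 CPM in uninjured mutants and 71.2 CPM in uninjured wild type (0.75, SE 0.0512, edgeR adjusted p = 2.45e-21). *npr3*, a natriuretic peptide receptor gene, averaged 33.4 CPM in mutants, next to 3.96 CPM in wild type at 0 dpci (3.08, SE 0.111, edgeR adjusted p = 7.13e-37), and 20.0 CPM in mutants, next to 34.8 CPM in wild type at 21 dpci (−0.80). *fn1a*, the fibronectin gene, which other cells of the wound also make, was lower in mutants at 0 dpci (−1.05) and higher at 2 dpci (0.59) and at 21 dpci (0.90).

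**Figure D4:**
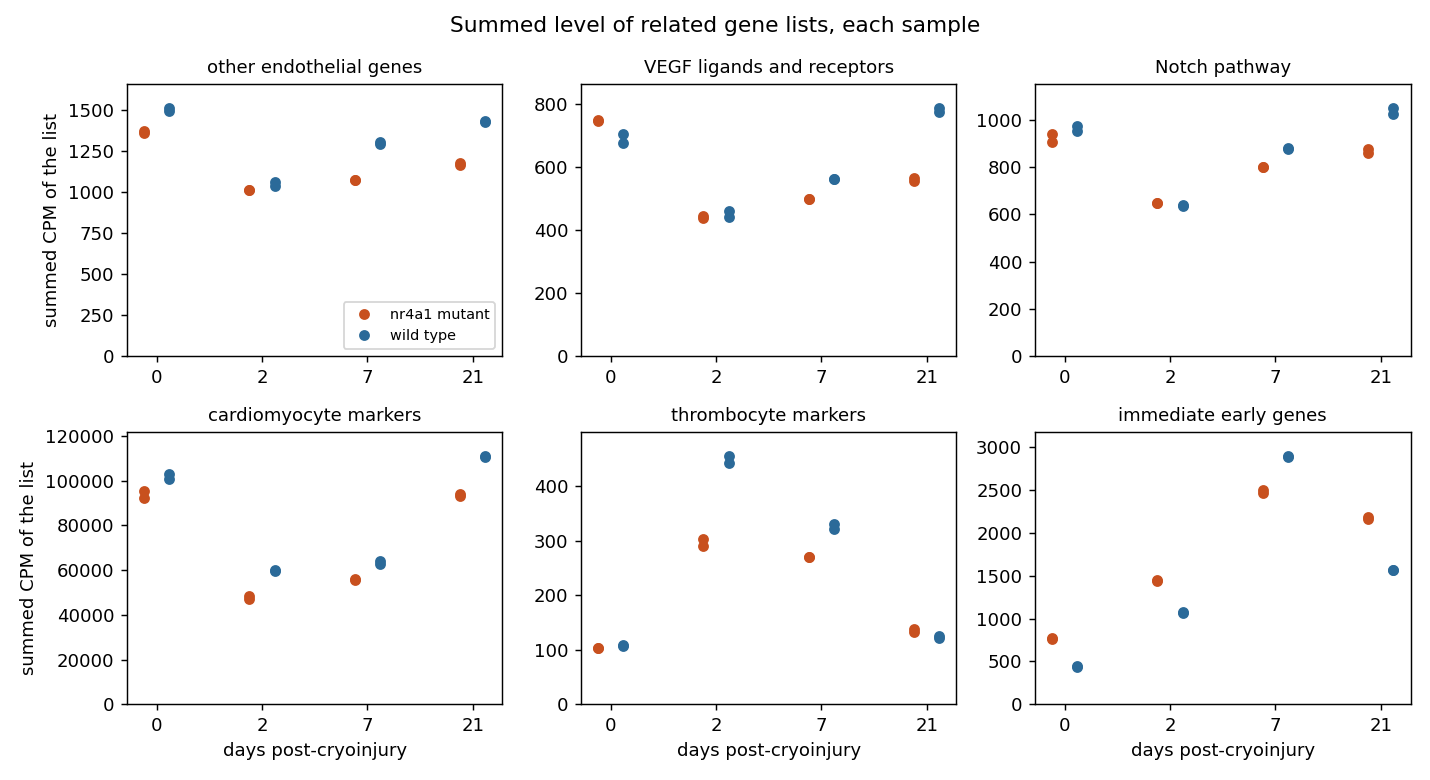
Summed CPM (TMM-scaled, vertical axes from 0) of the tested genes of 6 lists against days post-cryoinjury (stages evenly spaced), with 1 point per sample and mutants in orange to the left of wild type in blue. The VEGF list sums to 554 to 564 CPM in mutants, next to 772 to 785 CPM in wild type at 21 dpci, and thrombocyte markers to 290.0 to 302 CPM in mutants, next to 442 to 454 CPM in wild type at 2 dpci.

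The profiles of the 10 genes over the 8 condition means were compared as root mean square differences of log2 CPM, each gene centred on its own mean, with no test. Of the other 9 genes, *dll4* was the nearest to *kdrl* (0.16), *tie1* to *cdh5* (0.15), *cdh5* to *tek* (0.21) and *klf2a* to *klf2b* (0.30). Many other genes lay nearer, since *dll4* came at rank 43 for *kdrl*, *tie1* at rank 199 for *cdh5*, *cdh5* at rank 73 for *tek* and *klf2a* at rank 17 for *klf2b*. *klf2b* and *notch1b* were the farthest apart of the 10 (0.72). Among 8570 genes with a mean of at least 10 CPM, the gene most like *kdrl* was *sema4c* (0.066), that most like *notch1b* was *efr3ba* (0.060), that most like *cdh5* was *ptgs1* (0.068), and that most like *tie1* was *srsf6b* (0.077). For *fli1a* it was *eef1g* (0.041), for *dll4* *mtss1la* (0.097) came after a gene listed as *PKN2* (0.096), and for *tek* the nearest gene with a full name was *bcorl1* (0.12). For *vwf* it was *agrn* (0.13), for *klf2a* *adamts15b* (0.19), and for *klf2b* *id2b* (0.19). By this measure the Klf2 profiles had the least close neighbours. The measure is not set against how much a gene itself varied, which ran from 0.080 for *fli1a* to 0.55 for *notch1b* as root mean square about its mean. A flat gene such as *fli1a* thus finds close neighbours easily. The 8 means share the same libraries, so these likenesses describe this set of samples only.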

How the data were processed

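Bulk RNA-seq counts of 16 zebrafish ventricle samples were used. The authors used FastQC, STAR and featureCounts, and deposited unnormalized read counts under gene symbols. The submitters' processing notes name GRCz11 (danRer11); strand setting and handling of multiple alignments are not given in the sources used here. The fits used edgeR 4.0.16 and limma 3.58.1 (R 4.3.3). Of 31351 genes, 18949 reached 10 counts in 2 or more samples and were tested in 1 quasi-likelihood fit (glmQLFit, glmQLFTest) of the 8 conditions to all 16 samples with TMM scaling, and p-values were adjusted over all tested genes by Benjamini-Hochberg. Log2 fold changes and standard errors are from that fit (prior degrees of freedom 62.2, common coefficient of variation 3.42%). The paper states that its own tests accounted for batch effects. The sources used here name no batch, so that fit modelled none. Between 14333475 and 27668498 reads were counted per sample. The likeness of profiles used log2 CPM with a prior count of 2.

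The 10 genes and all lists were chosen with earlier results of these data known. All 10 genes are described. From each other list, the text names at most 3 called genes per comparison, those with the largest log2 fold change whose samples did not overlap and that reached 10 CPM in 1 condition. Gene overlaps come from RefSeq names and positions in the GRCz12tu assembly, in which 9 of 10 genes were matched, and no coordinates are given. Alternatives were DESeq2 1.42.0, its size factors, library totals, other count filters (none, or 50 counts), other fold thresholds, fits to the compared samples alone, sample number as a block, and each sample left out. Sample numbers showed no sign of pairing the samples: over 28 pairs of conditions, the correlation of their deviations lay between −0.0307 and 0.0321. That check was made over all tested genes, where counting noise in genes with few reads can hide a weak shared effect. It cannot see a batch that coincides with a condition. The steps were tested on simulated data.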

Additional observations from a re-analysis of the deposited data

Results flagged for a closer look

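The genotype difference of several genes changed after injury, by the edgeR test of the log2 fold change of mutant over wild type at a later stage minus that at 0 dpci (Benjamini-Hochberg over all tested genes, 2 samples per condition). At 2 dpci it was 0.86 for *tek* (adjusted p = 1.24e-19), 0.26 for *klf2a* (0.00139) and 0.28 for *klf2b* (0.0103). At 7 dpci it was −1.22 for *klf2b* (9.67e-21), −0.73 for *klf2a* (5.08e-16), −0.43 for *kdrl* (4.71e-11), −0.48 for *dll4* (6.89e-07) and 0.18 for *tie1* (0.0126). At 21 dpci it was −0.90 for *dll4* (3.05e-17), 0.65 for *tek* (9.35e-15), −0.70 for *klf2b* (8.23e-10), −0.37 for *kdrl* (9.67e-10), 0.36 for *vwf* (6.85e-09), 0.39 for *tie1* (1.95e-08), 0.23 for *cdh5* (0.000128), −0.28 for *klf2a* (0.000244) and −0.14 for *notch1b* (0.0364), a call that held in 2 of the 8 fits with 1 sample left out. All 3 stages are set against the same 0 dpci samples, so an unusual level there, as for *tek* in wild type, enters each of them.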

How the results depend on the processing

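The counts of called genes rest on the fold threshold, and many values on the scaling. With no fold threshold, 7, 8, 6 and 9 of the 10 genes were called between genotypes at 0, 2, 7 and 21 dpci (43.2%, 35.6%, 26.8% and 32.9% of all tested genes). In mutants 5 were then called at 7 against 2 dpci, 7 at 21 against 7 dpci and 9 at 21 against 0 dpci (41.5%, 48.9% and 39.4% of all), and in wild type 9, 9 and 7 (43.7%, 55.1% and 42.8%). The shares of all tested genes take in genes with far fewer reads than the 10. With the threshold inside the test (glmTreat), 0 were called between genotypes at 21 dpci; 9 had an edgeR adjusted p under 0.05 there. With library totals in place of TMM, 3 were called in mutants and 4 in wild type at 2 against 0 dpci and 1 in mutants at 21 against 7 dpci. That scaling moved the median log2 fold change of all genes to 0.18 for the genotypes at 21 dpci, 0.39 (mutants) and 0.40 (wild type) at 2 against 0 dpci, −0.18 and −0.35 at 21 against 7 dpci, 0.14 at 21 against 0 dpci in mutants, and 0.14 for the change of the genotype difference at 21 dpci. At 2 against 0 dpci 79.4% (mutants) and 81.3% (wild type) of the called genes were then higher, and 78.5% between genotypes at 21 dpci.

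Among genotype differences and values with an adjusted p under 0.05, signs turned under library totals for *cdh5* between genotypes at 21 dpci (0.072) and in mutants at 21 against 0 dpci (0.00071), *kdrl* between genotypes at 0 dpci (0.0049), *tek* between genotypes at 21 dpci (0.087), *fli1a* at 2 against 0 dpci in mutants (0.26) and wild type (0.28) and at 21 against 7 dpci in wild type (−0.23), *tie1* at 21 against 7 dpci in wild type (−0.20), and the change of the *notch1b* genotype difference at 21 dpci (0.0048). Some values with a larger adjusted p turned too.

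When samples were left out one at a time, the genotype difference ran from −0.064 to 0.030 for *fli1a* at 7 dpci, −0.075 to 0.024 for *kdrl* at 2 dpci and −0.0055 to 0.055 for *notch1b* at 7 dpci. An arm then holds 1 sample, assumed to vary like the others. The counts of called genes between genotypes were 1, 1, 3 and 1 in each such fit. For the change of the genotype difference the count ran from 2 to 3 at 2 dpci, from 4 to 7 at 7 dpci and from 8 to 9 at 21 dpci. Lost there were *klf2b* at 2 dpci without sample 1 of mutants at 2 dpci (adjusted p = 0.0565) or of wild type at 0 dpci (0.0747), *tie1* at 7 dpci without sample 2 of mutants at 0 dpci (0.0523), and *notch1b* at 21 dpci, called in 2 of 8 such fits. In mutants 6 to 7 were called at 2 against 0 dpci, 2 to 3 at 7 against 2 dpci, 2 at 21 against 7 dpci and 3 at 21 against 0 dpci, and in wild type 8, 4, 3 to 4 and 1. With the replicate block, no count of called genes changed, and *klf2b* between genotypes at 7 dpci was at −0.79. Of 861 other log2 fold changes under the alternatives, 835 kept direction and call. Of 129 counts of called genes, 115 equalled the main count or stayed near it, and 14 moved further.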
